A study of Mus musculus with 6 samples.

Results

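Ribosome biogenesis factors are the proteins that make, fold, cut and modify ribosomal RNA (rRNA) and assemble it with ribosomal proteins without remaining in the finished ribosome. The set described here holds 36 genes, listed by name and found by exact match to the gene symbols of the deposited count tables. All 36 were found among 24391 annotated genes, and all 36 passed the low-count filter that left 12664 genes for testing. The lowest raw count of any of them in any library was 123. They were grouped by known role into the box C/D snoRNP (3 genes), the box H/ACA snoRNP (4), a snoRNP chaperone (1), small-subunit factors (9), large-subunit factors (14) and nucleolar scaffold and rDNA-associated proteins (5).

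The cells were mRPMaxKO, a mouse line (strain background 129/SvJ and C57BL/6) grown from a lung tumour labelled RPMax-/-. From knowledge of the study, RP stands for Rb1 and Trp53, and the tumour models small cell lung cancer; both groups share the loss of Rb1, Trp53 and Max. They were a polyclonal population below passage 20, carrying a lentiviral vector that doxycycline switches on and selected with puromycin, and every library carries the same protocol text of 4 days of doxycycline. There were 3 control libraries and 3 in which MAX was restored. The labels do not say which vector the control cells carried, nor whether that text holds for them. They also do not tie the libraries to independent cultures, and every p-value rests on library-to-library spread that could be purely technical.

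Each library held between 10046899 and 11925909 counts. Max itself lay between 61.4 and 66.3 CPM (a gene's count scaled to a common library size, with TMM factors) in the controls and between 1306 and 1343 CPM with MAX restored; this checks the restoring, not the deletion, whose position in the gene the labels do not give. Neuroendocrine markers were abundant in every library, with a summed level of 8310 to 8660 CPM over 7 genes. The 5 fibroblast markers summed to 1.08 to 1.59 CPM in the controls and 1.52 to 3.12 CPM with MAX restored, the 5 immune markers to 1.49 to 2.75 and 2.41 to 3.32 CPM (Cd3e at 0 in all libraries), and the 3 endothelial markers to 0.295 to 0.479 and 0.588 to 1.43 CPM (Cdh5 at 0). The fibroblast difference lay in Pdgfrb, at 0.288 to 0.991 CPM in the controls and 1.18 to 2.44 CPM with MAX restored. Col1a1 and Col1a2 held at most 4 counts in any library and had lower means with MAX restored. Alveolar and club cell markers summed to 33.3 to 34.9 CPM in the controls and 27.6 to 30.9 CPM with MAX restored, most of it Sftpc; the part of these small differences in the results was not tested. Control 1 stood apart. Compared over genes, it gave a chi-square per degree of freedom of 8.91 and 10.2 against controls 2 and 3, whose own pair gave 1.51, and still 4.25 and 4.37 with the rRNA precursor gene Rn45s left out.

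As background, rRNA is transcribed in the nucleolus as one long precursor. Small nucleolar ribonucleoproteins (snoRNPs) carry a guide RNA that directs a chemical change to a single nucleotide. Box C/D particles add methyl groups with the methyltransferase fibrillarin, and box H/ACA particles turn uridine into pseudouridine with dyskerin. A large assembly, the small-subunit processome, cuts out and folds the small-subunit rRNA, while a separate series of particles matures the large subunit. Many of these genes are textbook targets of MYC, which binds the E-box CACGTG only as a dimer with MAX.

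Because MYC-MAX is known to bind E-boxes, promoters were searched for CACGTG, which reads the same on both strands. RefSeq promoter windows of build GRCm38.p6, from 250 bases before to 50 bases after a transcription start, matched 31 of the 36 genes by symbol. The other 5 were Fbl, Rrp12, Bop1, Rrs1 and Npm1. CACGTG occurred once in each of 8 of the 31 genes (25.8%), against 11.9% of 10117 tested genes in that table. It stood in 15% of the 3307 genes called lower there. Counted by window and not by gene, 7.15% of all 32851 windows held it. The 8 stretches are shown 5′ to 3′ on the gene's strand, with the E-box in capitals, to show where the letters lie; the last number is the position of the first C, counted from 1 at the first transcribed base.
Utp20, chr10:88826765-88826789, minus strand, position 38: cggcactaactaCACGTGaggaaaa
Wdr43, chr17:71616220-71616249, plus strand, position 18: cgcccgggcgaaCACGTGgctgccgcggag
Imp4, chr1:34439696-34439725, plus strand, position -121: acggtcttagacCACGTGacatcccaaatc
Tsr1, chr11:74898092-74898121, plus strand, position 25: tcacttggtgcaCACGTGgactgcagaatg
Pes1, chr11:3963965-3963994, plus strand, position 3: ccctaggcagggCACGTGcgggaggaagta
Nop2, chr6:125131811-125131840, plus strand, position -60: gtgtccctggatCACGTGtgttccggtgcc
Grwd1, chr7:45830740-45830767, minus strand, position 35: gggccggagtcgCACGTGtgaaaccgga
Mybbp1a, chr11:72441355-72441376, plus strand, position 41: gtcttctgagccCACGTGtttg

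The E-box lay before the start in 2 of the 8 (Imp4 and Nop2) and within the first transcribed bases in 6. By role, 4 of 8 matched small-subunit factors held it, 3 of 12 large-subunit factors, 1 of 4 nucleolar scaffold genes and none of the 7 snoRNP genes matched. Variant E-boxes were searched on both strands too. CACGCG or its complement CGCGTG stood in 9 of 31 members (29.0%) against 20.6% of tested genes, and CATGTG or its complement CACATG in 7 of 31 (22.6%) against 9.83%. At least one of the 3 letter groups, whose matches may partly overlap, stood in 20 of 31 members, against 36.7% of tested genes. These are letter matches, not bound sites.

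The 36 genes were all lower with MAX restored. Each passed the threshold (adjusted p under 0.05, edgeR's quasi-likelihood test with Benjamini-Hochberg adjustment over all 12664 genes), with adjusted p between 6.35e-12 and 0.000115, and in each the 3 MAX restored values lay below the 3 control values. Across all tested genes 63.5% were called in either direction and 32.3% were called lower, and 33.8% had MAX restored values all below the control values. The median log2 fold change was -0.65 (1.57-fold lower), from -1.13 in Rcl1 to -0.31 in Dkc1, where the median of all tested genes was -0.0036. A fall of at least 1.5-fold was reached by 21 of the 36, against 8.10% of tested genes. Since these are whole-culture RNA levels relative to the rest of the transcriptome, fewer cells of a type and less RNA per cell cannot be told apart. The list was drawn up with earlier results of these data in view, so its direction is not independent evidence.

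In total the 36 genes took 0.381%, 0.380% and 0.376% of the counts of controls 1, 2 and 3, and 0.255%, 0.248% and 0.253% of MAX restored libraries 1, 2 and 3. Their summed level fell from 3788 ± 47.4 to 2525 ± 38.2 CPM (SD, n = 3 each), to 66.7% of the control level. Replicates were close, with a median coefficient of variation over the 36 genes of 4.85% in the controls and 4.62% with MAX restored. In control 1, 16 of the 36 genes exceeded the average of controls 2 and 3, with a median log2 difference of -0.025, from -0.19 in Rrp1b to 0.23 in Npm1. Among all tested genes 47.4% did so, with a median of -0.011, so the members were close to the rest here.

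**Figure D1:**
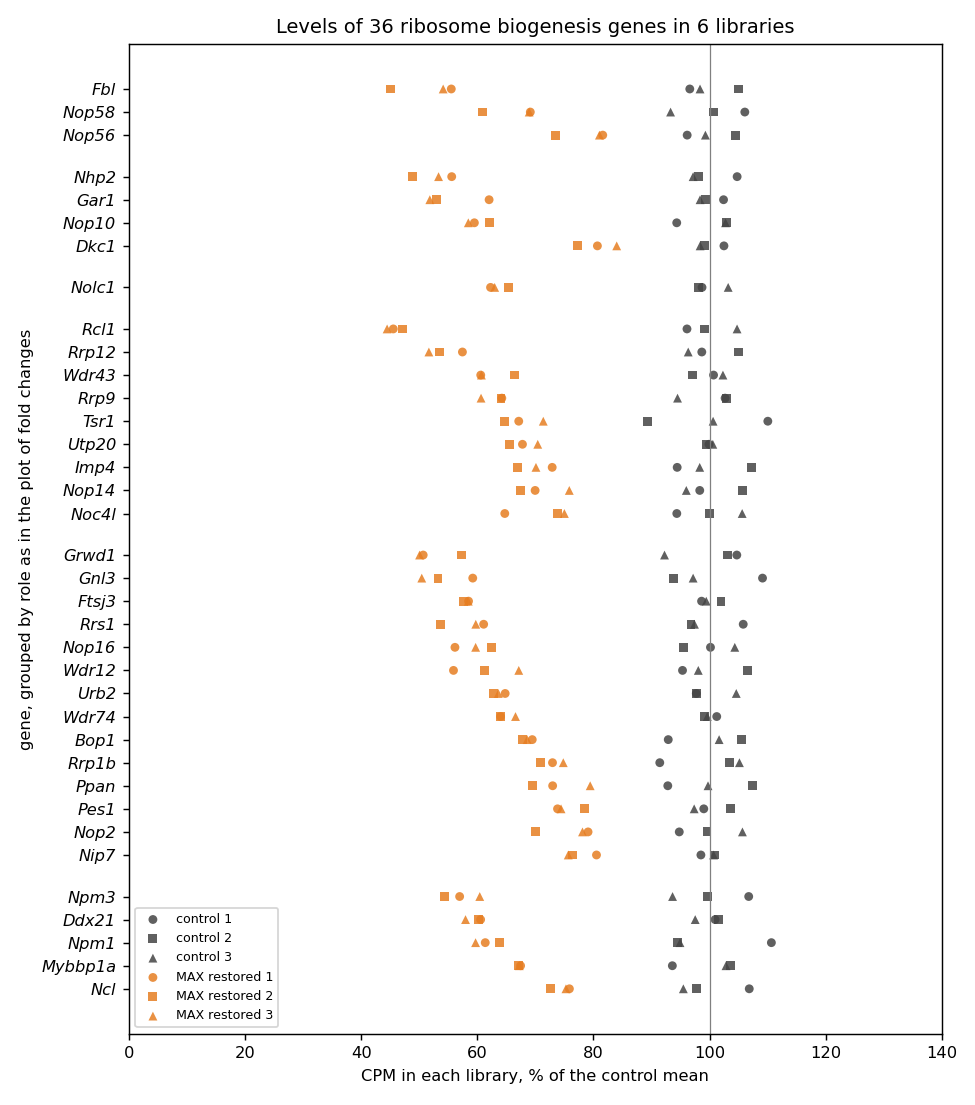
Level of each of the 36 genes in each library (horizontal axis, CPM as a percentage of that gene's control mean, from 0); rows are genes grouped by role, grey symbols are the 3 controls and orange symbols the 3 MAX restored libraries. In all 36 rows the orange symbols lie left of the grey ones, closest in Ppan, Dkc1 and Nop56.

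Box C/D core genes fell unequally. The 3 genes encode fibrillarin and the paired scaffold proteins NOP56 and NOP58 that hold it on the guide RNA. Fbl, on chromosome 7 of mm9 from 28954767 to 28964288, measured 23.5, 25.6 and 23.97 CPM in controls 1, 2 and 3 and 13.5, 10.97 and 13.2 CPM in MAX restored libraries 1, 2 and 3. It fell 1.94-fold (log2 -0.96, SE 0.10), and MAX restored library 2 was the lowest. Nop58 measured 165, 157 and 145 CPM in the controls and 108, 94.7 and 107 CPM with MAX restored, a log2 change of -0.59 (SE 0.06). Its control values spread more than those of Fbl, with control 1 the highest, and the groups stayed apart. Nop56 measured 97.6, 106 and 100.8 CPM in the controls against 82.9, 74.6 and 82.3 CPM. At log2 -0.35 (SE 0.05) it showed the smallest fall of the 3, and its groups lay 14.8 CPM apart.

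Per kilobase of exon, a scale meant for comparing genes, Fbl was the scarcest of the 3 in both groups. The length used holds all annotated exon bases of a gene, whether or not these cells use them. Levels per kilobase compared between genes, and their sums, thus depend on the annotation. The ratio of Nop56 to Fbl, taken within each library, was 2.54, 2.54 and 2.57 in the controls and 3.75, 4.16 and 3.81 with MAX restored. The ratio of Nop58 to Fbl went from 3.75 ± 0.31 to 4.83 ± 0.21, and that of Nop56 to Nop58 from 0.682 ± 0.058 to 0.808 ± 0.011 (SD, n = 3 each). Each of these 3 ratios had no overlap between groups.

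All 4 box H/ACA core genes fell, 3 of them by at least 1.5-fold. NHP2, NOP10 and GAR1 are small proteins bound to dyskerin, the pseudouridine synthase encoded by Dkc1. Nhp2 measured 59.7, 55.9 and 55.4 CPM in controls 1, 2 and 3 and 31.7, 27.8 and 30.4 CPM in MAX restored libraries 1, 2 and 3 (log2 -0.93, SE 0.06). Gar1 measured 43.8, 42.5 and 42.1 CPM against 26.6, 22.7 and 22.2 CPM (log2 -0.84, SE 0.07). In Gar1 the controls lay within 2 CPM of each other and MAX restored library 1 was the highest of its group. Nop10 measured 49.8, 54.4 and 54.3 CPM against 31.4, 32.8 and 30.9 CPM (log2 -0.74, SE 0.06). Dkc1 measured 49.9, 48.3 and 47.9 CPM against 39.3, 37.6 and 40.9 CPM, which at log2 -0.31 (SE 0.06) was the smallest fall of the 36. It lies on chromosome X of mm9 from 72341193 to 72355115, and its groups were 7.003 CPM apart.

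Relative to Dkc1, all 3 partners were lower with MAX restored. The ratio of Gar1 to Dkc1 per kilobase was 1.94 in each control and 1.49, 1.33 and 1.19 in MAX restored libraries 1, 2 and 3. Nhp2 to Dkc1 went from 3.26 ± 0.064 to 2.13 ± 0.10, and Nop10 to Dkc1 from 4.12 ± 0.29 to 3.07 ± 0.23 (SD, n = 3 each). Over the 6 subunit ratios compared, of which several share a gene, each two-sided exact permutation test gave p = 0.1, the smallest that 3 against 3 libraries allows, and 0.1 after Benjamini-Hochberg adjustment. The groups did not overlap in any of the 6 ratios, and with 3 libraries a group this exact test cannot reach a threshold of 0.05. The ratios restate the unlike changes of the single genes. How often ratios of other gene pairs keep the groups apart was not tested, and 63.5% of all tested genes were called in either direction.

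**Figure D2:**
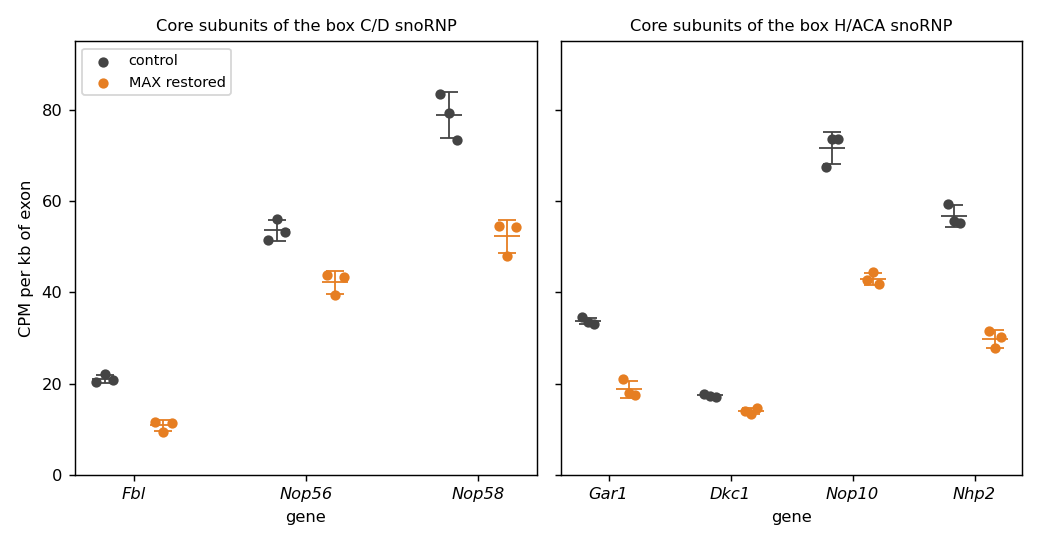
CPM per kilobase of exon (vertical axis, from 0) for the core genes of the 2 snoRNP classes; points are libraries, horizontal marks and bars are the mean ± SD of 3 libraries, grey for control and orange for MAX restored. Dkc1, from 17.4 to 14.02, and Nop56, from 53.6 to 42.2, show the smallest steps for their height, and Nhp2, from 56.8 to 29.9, one of the largest.

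Nolc1 encodes NOPP140, a chaperone that binds both kinds of snoRNP. It measured 166, 165 and 174 CPM in the controls and 105, 110.1 and 106 CPM with MAX restored (log2 -0.65, SE 0.05). Its change lay close to the median of the 36 genes, and its groups were 55.3 CPM apart.

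Among small-subunit factors all 9 were lower, with a median log2 change of -0.56. Rcl1, a cyclase-like protein of the processome, lies on chromosome 19 of mm9 from 29175865 to 29218333. Its values were 54.3, 56.0 and 59.1 CPM in controls 1, 2 and 3 and 25.7, 26.6 and 25.1 CPM in MAX restored libraries 1, 2 and 3. This was the only fall of at least 2-fold among the 36 genes (log2 -1.13, SE 0.06), and only 229 of the 12664 tested genes (1.81%) fell further. Rrp12, a repeat protein needed for export and late maturation of pre-ribosomes, had the highest level per kilobase of full exon length in this class, 31.7 in the controls. It went from 135, 144 and 132 CPM to 78.7, 73.2 and 70.7 CPM (log2 -0.88, SE 0.05).

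The other 7 small-subunit genes changed by log2 -0.68 to -0.49. Wdr43, a WD-repeat protein of the early processome (-0.68), and Rrp9, the protein specific to the U3 box C/D snoRNP (-0.67), were followed by Tsr1, a factor of late 40S maturation (-0.56). Utp20, a very large scaffold protein of the processome, changed by -0.56, the U3 snoRNP partner gene Imp4 by -0.52, Nop14 by -0.50 and Noc4l by -0.49. Noc4l, the smallest change of the class, measured 33.2, 35.2 and 37.2 CPM against 22.8, 26.0 and 26.4 CPM. Its lowest control and highest MAX restored library were 6.81 CPM apart. Tsr1 needs care, since 68.5% of its exon bases overlap those of Srr on the other strand and the counting did not use strand. Reads there match both genes and could be lost. The level of Tsr1 per kilobase, and with it the class sum per kilobase, may thus be too low. Srr changed the other way, from 20.9 ± 1.37 to 25.7 ± 1.16 CPM (SD, n = 3; log2 0.29). Exon overlaps in 6 other members covered between 0.264% and 4.18% of their exon bases.

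All 14 large-subunit factors were lower, 8 of them by at least 1.5-fold, with a median log2 change of -0.64. The deepest change was in Grwd1, which encodes a chaperone of ribosomal protein L3. It measured 43.7, 43.1 and 38.5 CPM in controls 1, 2 and 3 and 21.2, 23.9 and 20.9 CPM in MAX restored libraries 1, 2 and 3 (log2 -0.92, SE 0.08). At the other end was Nip7, a factor of 60S assembly, with 54.1, 55.3 and 55.3 CPM against 44.2, 41.9 and 41.5 CPM (log2 -0.37, SE 0.06). Even there the groups lay 9.88 CPM apart, several times the spread within either group.

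The PeBoW complex, formed by PES1, BOP1 and WDR12 and needed to cut the spacer before the large-subunit rRNA is finished, was lower in all 3 genes. Bop1 had the highest level of the class per kilobase, 65.0 in the controls, and measured 149.5, 169.7 and 164 CPM against 112, 109 and 110.4 CPM (log2 -0.54, SE 0.05). Control 1 was the lowest control, and the MAX restored values lay within 3 CPM of each other. Wdr12 fell from 32.0 ± 1.88 to 19.7 ± 1.7998 CPM (log2 -0.71, SE 0.08) and Pes1 from 80.5 ± 2.62 to 60.8 ± 2.03 CPM (SD, n = 3; log2 -0.40, SE 0.05). Wdr12 was also the scarcest of all 36 genes per kilobase, at 9.49 in the controls and 5.83 with MAX restored.

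The remaining 9 large-subunit genes included 2 methyltransferase genes, Ftsj3 (log2 -0.78) and Nop2 (-0.40). Gnl3, which encodes the nucleolar GTPase nucleostemin, changed by -0.88. Rrs1, which acts with the 5S rRNA particle, changed by -0.78, and Nop16, a nucleolar protein known as a MYC target, by -0.75. Values for Urb2, Wdr74, Rrp1b and Ppan were -0.65, -0.63, -0.46 and -0.44. Rrs1 has a single exon, so splicing cannot set reads of its RNA apart from reads of any DNA in a library. The part of DNA reads in the counts of Rrs1 was not tested. Its values did not overlap, at 58.6 to 64.0 CPM in the controls and 32.5 to 37.0 CPM with MAX restored.

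All 5 nucleolar scaffold and rDNA-associated genes were lower, and they ranged from the most to the least abundant of the 36 by CPM. Ncl, the most abundant, encodes nucleolin, an RNA-binding protein of the early pre-rRNA, and lies on chromosome 1 of mm9 from 88241294 to 88256030. It measured 896, 819 and 801 CPM in controls 1, 2 and 3 and 636, 609.5 and 631 CPM in MAX restored libraries 1, 2 and 3 (log2 -0.42, SE 0.04). Control 1 was the highest, and the groups were 164.5 CPM apart, the widest gap of the 36 genes in absolute terms. Npm3, a small relative of nucleophosmin, showed the deepest change of the class at log2 -0.81 (SE 0.10). It was the least abundant, with 21.6, 20.1 and 18.9 CPM against 11.5, 10.97 and 12.2 CPM.

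Npm1, the abundant nucleolar chaperone nucleophosmin, fell from 129 ± 11.9 to 79.5 ± 2.64 CPM (log2 -0.70, SE 0.06); control 1 held 143 CPM and the other controls 122 CPM each. Npm1 has processed copies in the genome, so its level is uncertain where reads match more than one place. Ddx21, an RNA helicase of rRNA transcription and processing, changed by log2 -0.75, and Mybbp1a, a MYB-binding nucleolar protein, by -0.57. Without control 1 the median of this class moved from -0.70 to -0.62.

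**Figure D3:**
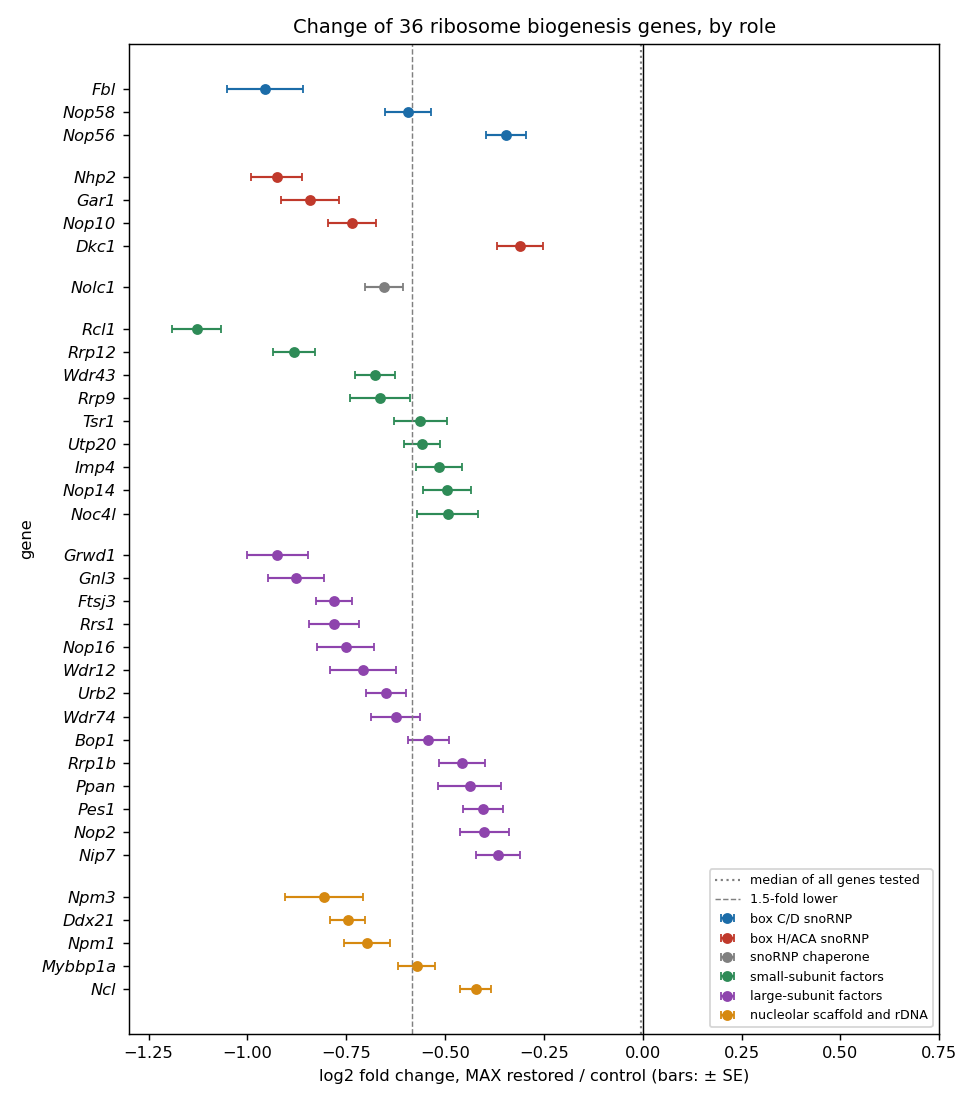
Log2 fold change of MAX restored over control (horizontal axis) for the 36 genes in rows, coloured by role; points are edgeR estimates and bars ± SE, the dotted line is the median of all genes tested and the dashed line a fall of 1.5-fold. Every point lies left of 0, from -1.13 for Rcl1 to -0.31 for Dkc1, and each role with 3 or more genes spans both sides of the dashed line.

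Compared by role, the classes overlapped widely. The box H/ACA genes had the lowest median log2 change, -0.79 (range -0.93 to -0.31), followed by the nucleolar scaffold genes at -0.70 (-0.81 to -0.42). Large-subunit factors stood at -0.64 (-0.92 to -0.37), box C/D genes at -0.59 (-0.96 to -0.35) and small-subunit factors at -0.56 (-1.13 to -0.49). The box H/ACA median was the lowest of these 5 under all 14 settings run, the one reported included, but it rests on 4 genes, 1 of which fell least of all. The order of the other classes changed when a library was left out. Genes of a class are not replicates, so no test was made between classes.

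Summed per kilobase within a library, small-subunit factors stood at 0.576, 0.574 and 0.573 of the large-subunit sum in controls 1, 2 and 3, and at 0.551, 0.558 and 0.555 in MAX restored libraries 1, 2 and 3. The sums of both arms thus moved nearly in parallel, to 62.5% and 64.7% of the control level. The box C/D sum was 0.867, 0.874 and 0.824 of the box H/ACA sum in the controls and 1.01, 0.936 and 1.05 of it with MAX restored. For the nucleolar scaffold genes over the large-subunit factors the groups overlapped, with 0.834, 0.771 and 0.765 against 0.810, 0.816 and 0.802.

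The genes lie on 16 chromosomes, have between 1 and 62 exons and between 738 and 8831 exon bases. The median log2 change of up to 25 tested genes on each side of a member was between -0.20 and 0.10. In level, 25 of 36 were above the median of tested genes and 8 among the top 20% of levels. Among the 9200 tested genes at or above the level of the lowest member, 37.0% were called lower and 6.63% were called lower by at least 1.5-fold, beside 36 and 21 of the 36 members. The more abundant 18 genes had a median of -0.57 and the less abundant 18 a median of -0.74. The 8 genes with CACGTG had a median of -0.56 (range -0.92 to -0.40) and the 23 matched genes without it -0.65 (-1.13 to -0.31), and the ranges overlapped nearly throughout.

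Several of these genes also carry snoRNA genes in their introns, the guides of the same particles. The annotation placed 11 snoRNA genes inside 6 members, namely Nop56, Nop58, Wdr43, Tsr1, Gnl3 and Ncl. All 11 together held 91 counts in the controls and 76 with MAX restored, too few to be tested, so changes of the guides were not detectable with these counts. The 6 members with a snoRNA gene in this annotation had a median log2 change of -0.58 (range -0.88 to -0.35). The other 30, which may include hosts of snoRNA genes that this annotation does not list, had a median of -0.66.

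Counts of Rn45s, the gene entry of the rRNA precursor on which these factors act, did not separate the groups. The finished rRNAs are cut from this precursor, so these counts cannot tell precursor from finished rRNA. Rn45s measured 10013, 1869 and 1083 CPM in controls 1, 2 and 3 and 1608, 1209 and 1256 CPM in MAX restored libraries 1, 2 and 3. The groups overlapped, and control 1 alone stood far above the rest. In edgeR's quasi-likelihood test Rn45s changed by log2 -1.67 (adjusted p = 0.00379), and without control 1 by -0.12 (adjusted p = 0.063).

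A wider list of 122 further ribosome biogenesis genes, sorted by role and not by how they moved, was used to see how far the pattern reached. All but Noc2l were in the annotation used, and all 121 were tested: 97 were lower (80.2%), 5 higher and 19 not past the threshold, beside the 32.3% of all tested genes called lower. Their median log2 change was -0.36, smaller than the -0.65 of the 36 genes. Of the 121, 28 were lower by at least 1.5-fold, against 8.10% of all tested genes. The wider list, too, was chosen with earlier results of these data known. The rises in the wider list were Ddx55 (0.68), Exosc10 (0.43), Ddx49 (0.37), Surf6 (0.19) and Rrp1 (0.12). Without control 1 there were 7, with Naf1 (0.15) and C1d (0.27) added.

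Further small-subunit factors were lower in 35 of 44 and higher in 1. Ltv1, an assembly factor of the 40S head, fell from 72.2 ± 4.02 to 35.3 ± 1.79 CPM, Tsr2, a chaperone of ribosomal protein S26, from 60.7 ± 1.81 to 31.6 ± 1.82 CPM, and the processome gene Utp14a from 38.6 ± 2.26 to 20.3 ± 2.05 CPM (SD, n = 3 each). The helicase gene Ddx49 rose from 37.3 ± 2.37 to 48.0 ± 3.44 CPM. Tsr2 and Ddx49 lie among neighbours that moved the same way, with medians of -0.26 and 0.44 over the 25 tested genes on each side; the part of position was not tested. Bms1 (0.05), Utp6 (-0.06) and Rrp7a (-0.01), chosen after their values were seen, were among the 8 that did not pass.

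Of the further large-subunit factors 44 of 52 were lower and 3 higher. The nucleolar gene Nol8 fell from 88.6 ± 0.847 to 43.3 ± 3.78 CPM, Rrp15 from 29.0 ± 0.852 to 14.5 ± 0.768 CPM, and Rpf2, the partner of RRS1, from 33.8 ± 2.57 to 18.8 ± 1.95 CPM (SD, n = 3 each). Ddx55, a helicase of large-subunit assembly, rose from 41.8 ± 1.12 to 67.1 ± 1.30 CPM and Surf6 from 45.9 ± 1.09 to 52.4 ± 2.43 CPM. Rrp1, the relative of the member gene Rrp1b, rose from 249 ± 9.87 to 270.0 ± 8.04 CPM, while Rrp1b itself fell from 68.3 ± 5.11 to 49.8 ± 1.34 CPM.

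Of 11 genes listed under snoRNP assembly and subunits 7 were lower and none higher. They included Shq1, the chaperone of free dyskerin (log2 -0.80), Tcof1, the treacle gene (-0.67), and Nhp2l1, the remaining core protein of the box C/D particle (-0.62). Nhp2l1 lay at 13.7 ± 1.65 and 8.89 ± 0.456 CPM (SD, n = 3). Naf1 (0.09), an assembly factor that GAR1 replaces on the box H/ACA particle, did not pass the threshold. Exosome genes, whose products trim rRNA precursors, were lower in 11 of 14. Exosc5 changed most (log2 -0.97), followed by Exosc7 and Exosc1 (both -0.57). The nuclear catalytic subunit gene Exosc10 rose (0.43), among neighbours with a median of 0.50.

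**Figure D4:**
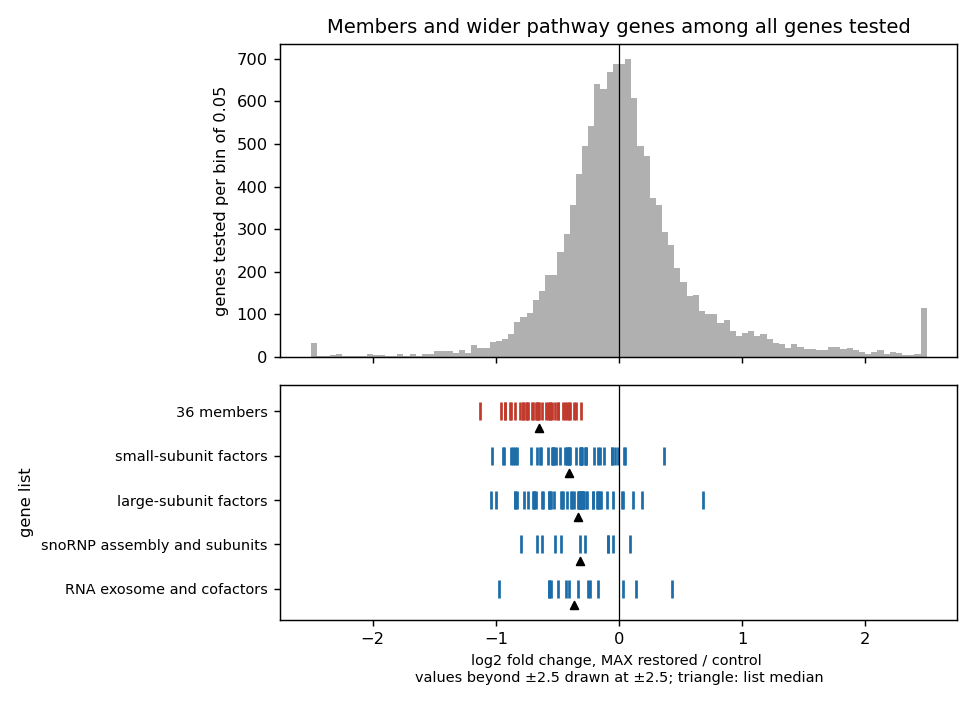
Top, histogram of the log2 fold changes of all 12664 genes tested (vertical axis, genes per bin; values beyond the limits are drawn at the limits). Bottom, each gene of the 36 members (red) and of the wider lists (blue) as a tick on the same horizontal axis, with a triangle at the list's median: -0.65 for the members, -0.41 for small-subunit, -0.33 for large-subunit, -0.31 for snoRNP and -0.37 for exosome genes.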

How the data were processed

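Messenger RNA was measured by RNA sequencing in 6 libraries made from 500 ng of total RNA. The authors deposited raw read counts for each gene symbol, with a separate table for each library. Tools listed in the submitters' processing notes were STAR 2.5.2a, bcl2fastq 1.8.4 and Subread 1.6.0, with the build mm9. Per the file headers, featureCounts counted reads over UCSC mm9 exons without strand and with no option set for multi-mapping or multi-overlapping reads, so such reads could be lost. No further columns of values per sample were present.

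Counts were filtered with filterByExpr (minimum count 10), scaled by TMM and tested in R 4.3.3 with edgeR 4.0.16's quasi-likelihood method, with group as the sole term, Benjamini-Hochberg adjustment and a threshold of 0.05. Each SE was taken as the size of the log2 change divided by the square root of F. The biological coefficient of variation was 4.28%. A chi-square over genes with 20 or more summed counts separated every pair of replicates beyond sampling noise. The members and lists were chosen with earlier results of these data known, so they received no set test. Values per library are given for all snoRNP members and, in each other role, for the largest and smallest change and the highest level per kilobase. Other members are given by their log2 change, except Wdr12, Pes1, Rrp1b, Npm1 and Rrs1, for which group means, ranges or library values were added after they were seen. In the wider lists, up to 3 called genes in each direction were named if their mean log2 CPM was 1 or more. Promoter letters are RefSeq's (GRCm38.p6); 446 of the 10117 tested genes found there were matched by a synonym. No protein sequences were used here. On data simulated for this comparison (12360 genes tested), the test found 76% of the genes changed 1.25-fold and 96% of those changed 1.5-fold, with 16 false calls among 12160 genes. The simulation changed only 50 genes at each fold size, drawn from the better-counted genes, and set no library apart as control 1 was. In the data 63.5% of tested genes were called, so these rates may not hold there. Alternatives were other scalings, no filter, DESeq2 1.42.0, limma voom (3.58.1), a threshold of 0.01, the replicate number as a block and leaving out each library.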

Additional observations from a re-analysis of the deposited data

How the results depend on the processing

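All 36 genes were called lower under every alternative run: 3 other scalings, no low-count filter, DESeq2, limma voom, an adjusted p threshold of 0.01, the replicate block and each library left out. Over the 468 values of single members under alternatives, the log2 change stayed between -1.16 and -0.28. Between 20 and 22 genes were lower by at least 1.5-fold. The median of the 36 lay between -0.65 and -0.63 with a library left out, and at -0.63 with upper-quartile scaling. Class medians moved with single libraries: box C/D from -0.6424 to -0.5289, box H/ACA from -0.8243 to -0.751, small-subunit factors from -0.6398 to -0.5281 and nucleolar scaffold genes from -0.7375 to -0.6207. In the wider list between 88 (DESeq2) and 98 genes were lower and between 4 and 7 higher. Same-numbered deviations correlated at 0.00351, 0.0355 and -0.0241, within the range of -0.0695 to 0.0635 for libraries with different numbers. These correlations cannot tell whether same-numbered libraries were handled together. With the replicate block 36 members, 97 wider genes and 4093 of all genes were lower. Subunit ratios kept their direction without each library; leaving out exon length cannot change them, since it cancels in the log2 change of a ratio. Protein comparisons planned from reference sequences were not run. The narrower promoter window, from 100 bases before to 50 after, held CACGTG in 7 of 31 members (22.6%). The share was 7.61% of tested genes and 10.3% of genes called lower. The snoRNA genes inside members had too few counts to be tested; the part of depth and of library preparation in this was not tested.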
